A study of Mus musculus with 10 samples.

Results

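The genes described here are 10 members of a 22-gene general Yap/Taz target signature. The study's display of Yap targets, which shows only targets that differed between treated and control cells, does not name them. The 10 genes are Ankrd1, Axl, Crim1, F3, Nuak2, Arhgef17, Dock5, Ptpn14, Asap1 and Fjx1. They were found by gene symbol among the 48709 genes of each table, and all 10 were matched. RNA was measured by sequencing in 10 libraries of supporting cells, the non-sensory epithelial cells of the vestibular organs, sorted by their EGFP fluorescence from utricles of Lfng-EGFP mice aged 21 postnatal days and kept in culture. TRULI, a small-molecule inhibitor of the Lats kinases, was given at 10 μM in 0.1% DMSO, and controls received 0.1% DMSO alone. By the sample labels there are 3 libraries after 5 days of DMSO (DMSO d5), 3 after 5 days of TRULI (TRULI d5), 2 after 5 days of DMSO followed by 5 days without treatment (DMSO d10) and 2 after 5 days of TRULI followed by 5 days without it (TRULI d10). The Lfng reporter drives the sort in every group, so all values refer to cells that carried enough EGFP to be collected.

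The Hippo pathway holds the transcriptional coactivators Yap and Taz in check: Lats kinases phosphorylate them and keep them out of the nucleus. Unphosphorylated Yap enters the nucleus and binds Tead transcription factors, which recognise short MCAT elements, often together with AP-1 factors, and raise the transcription of genes for matrix, cytoskeleton and growth. Several targets feed back on the pathway, and in the inner ear Yap activity is known for its part in the growth of the developing utricle.

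For 4 of the 10 libraries the name of the deposited table and the sample label disagree on the condition, and the comparisons below are therefore given for both groupings. The libraries labelled TRULI d5 replicates 1 and 2 were deposited as DMSO d10 replicates 1 and 2 and are called X1 and X2 here. The libraries labelled DMSO d10 replicates 1 and 2 were deposited as TRULI d5 replicates 2 and 3 and are called Y1 and Y2. The other 6 libraries carry the same condition in both: the 3 DMSO d5 controls, 1 TRULI d5 library (labelled replicate 3, deposited as replicate 1) and the 2 TRULI d10 libraries, called W1 and W2. Ccn2, a matricellular Yap target outside the 10 genes, was at 15.1, 8.68 and 11.6 CPM (counts scaled to library size) in the controls, 2.07 and 6.60 CPM in X1 and X2, 696 CPM in the TRULI d5 library of both groupings, 469 and 488 CPM in Y1 and Y2 and 16.0 and 3.75 CPM in W1 and W2. The libraries that GEO labels as TRULI-treated at 5 days thus held the highest Ccn2 level and the lowest, and those labelled DMSO d10 were near the highest.

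The tables sum to between 2463872 and 6255149 counts, so that 3 counts correspond to 0.479 to 1.16 CPM. Mitochondrial ribosomal RNA took 13.1% to 26.6% of counts in the controls, the TRULI d5 library of both groupings and Y1 and Y2, and 1.47% to 2.54% in X1, X2, W1 and W2. Lfng, which marks the sorted supporting cells, was at 504 to 544 CPM in the controls and at 21.6 to 105 CPM in X1, X2, W1 and W2. The summed level of 11 supporting-cell markers was 9315 to 13710 and 4715 to 7558 CPM in these sets, of which Otog made up 4806 to 9964 and 2145 to 4513 CPM. Sox2, Slc1a3, Otog, Otogl and Kremen1 were also below every control in X1, X2, W1 and W2. Sox9, Gjb2, Gjb6, Jag1 and Hes1 overlapped with the controls, with Sox9 at 593 to 809 and 715 to 928 CPM. In the TRULI d5 library of both groupings, Y1 and Y2, Lfng was at 303.5, 526 and 294 CPM and the marker sum at 7894, 9160 and 10100 CPM. Otog was below every control there too, at 4463, 2970 and 3525 CPM, as were Gjb6 and Hes1. Sox2, Slc1a3 and Kremen1 were within or above the controls there. Of 7 macrophage markers C1qa, C1qb and Cx3cr1 were at 0 in every library, and the list summed to at most 0.798 CPM in a library.

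Promoters are shown for 4 of the genes on which the comparisons below turn. RefSeq promoter windows (GRCm38.p6, 250 bases before to 50 after the start) were matched for 5 of the 10 genes: Ankrd1, Axl, Crim1, F3 and Ptpn14. Nuak2, Arhgef17, Dock5, Asap1 and Fjx1 were not matched. Each sequence is written 5′ to 3′ on the gene's strand, and capitals mark the Tead core GGAATG, or its reverse complement, in Crim1, Ptpn14 and Axl and the AP-1 motif TGANTCA in F3. Both motifs were searched on both strands, and no match in these windows overlapped another.
Crim1: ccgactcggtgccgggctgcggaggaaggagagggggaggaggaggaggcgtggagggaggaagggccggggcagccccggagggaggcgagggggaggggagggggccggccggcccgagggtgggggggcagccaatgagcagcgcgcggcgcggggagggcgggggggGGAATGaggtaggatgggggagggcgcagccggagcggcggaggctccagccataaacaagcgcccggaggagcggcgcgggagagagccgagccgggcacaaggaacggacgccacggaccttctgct
Ptpn14: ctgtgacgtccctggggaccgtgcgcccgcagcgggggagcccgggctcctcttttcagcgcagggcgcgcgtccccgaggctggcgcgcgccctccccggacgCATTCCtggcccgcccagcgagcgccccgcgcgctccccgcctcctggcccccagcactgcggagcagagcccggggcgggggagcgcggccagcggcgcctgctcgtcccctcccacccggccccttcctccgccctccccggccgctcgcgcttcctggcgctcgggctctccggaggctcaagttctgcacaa
Axl: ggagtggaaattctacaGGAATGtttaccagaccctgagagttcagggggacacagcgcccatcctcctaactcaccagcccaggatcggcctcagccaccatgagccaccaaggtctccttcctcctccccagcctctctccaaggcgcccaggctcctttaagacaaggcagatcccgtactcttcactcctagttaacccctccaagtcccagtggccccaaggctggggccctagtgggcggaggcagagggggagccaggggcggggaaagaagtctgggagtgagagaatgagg
F3: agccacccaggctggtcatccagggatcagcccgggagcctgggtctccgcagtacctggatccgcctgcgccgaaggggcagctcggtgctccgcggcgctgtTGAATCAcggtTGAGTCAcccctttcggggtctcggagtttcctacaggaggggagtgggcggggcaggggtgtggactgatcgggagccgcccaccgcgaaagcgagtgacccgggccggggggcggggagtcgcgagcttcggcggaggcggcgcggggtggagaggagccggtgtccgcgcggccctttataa

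The Tead core occurred in 4 of the 5 matched windows, against 4817 of all 32851 windows (14.7%). The Crim1 window (chr17:78199998-78200297, plus strand) held it at base -79 and the Ptpn14 window (chr1:189728018-189728317, plus strand) at base -146, counted from the start. In the Axl window (chr7:25788684-25788983, minus strand) it began at base -233. The Ankrd1 window (chr19:36119795-36120094, minus strand) held it 2 times, at bases -210 and -123. The F3 window (chr3:121723287-121723586, plus strand) held no match to the Tead core and 2 to the AP-1 motif, at bases -146 and -135, and TGANTCA occurs in 7.81% of all windows. These matches are letters in a short window and were not tested for binding. Crim1 and Ptpn14, which moved in opposite directions by the deposited names, both had 1 match.

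Levels differed widely between the 10 genes. On the FPKM scale (read fragments scaled to gene length and library size), the mean level over the 10 libraries was highest for F3, which encodes tissue factor, the starter of the extrinsic clotting pathway, at 122 FPKM (52.7 to 228). Crim1, which encodes a membrane protein with cysteine-rich repeats that binds bone morphogenetic proteins, followed at a mean level of 45.0 FPKM (28.6 to 75.4). Asap1, an Arf GTPase-activating protein of focal adhesions, and Arhgef17, a guanine-nucleotide exchange factor, had mean levels of 26.6 and 18.7 FPKM, and their ranges over the libraries overlapped. Ptpn14, a phosphatase that binds Yap and restrains it, Axl, the receptor tyrosine kinase for Gas6, Nuak2, an AMPK-related kinase that acts on myosin, and Dock5, a Rac exchange factor, lay close together at mean levels of 6.63, 6.44, 5.99 and 4.08 FPKM. Fjx1, related to a Golgi kinase of planar polarity, and Ankrd1, a muscle ankyrin-repeat protein often used as a Yap readout, were near the detection limit at mean levels of 0.593 and 0.467 FPKM.

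**Figure D1:**
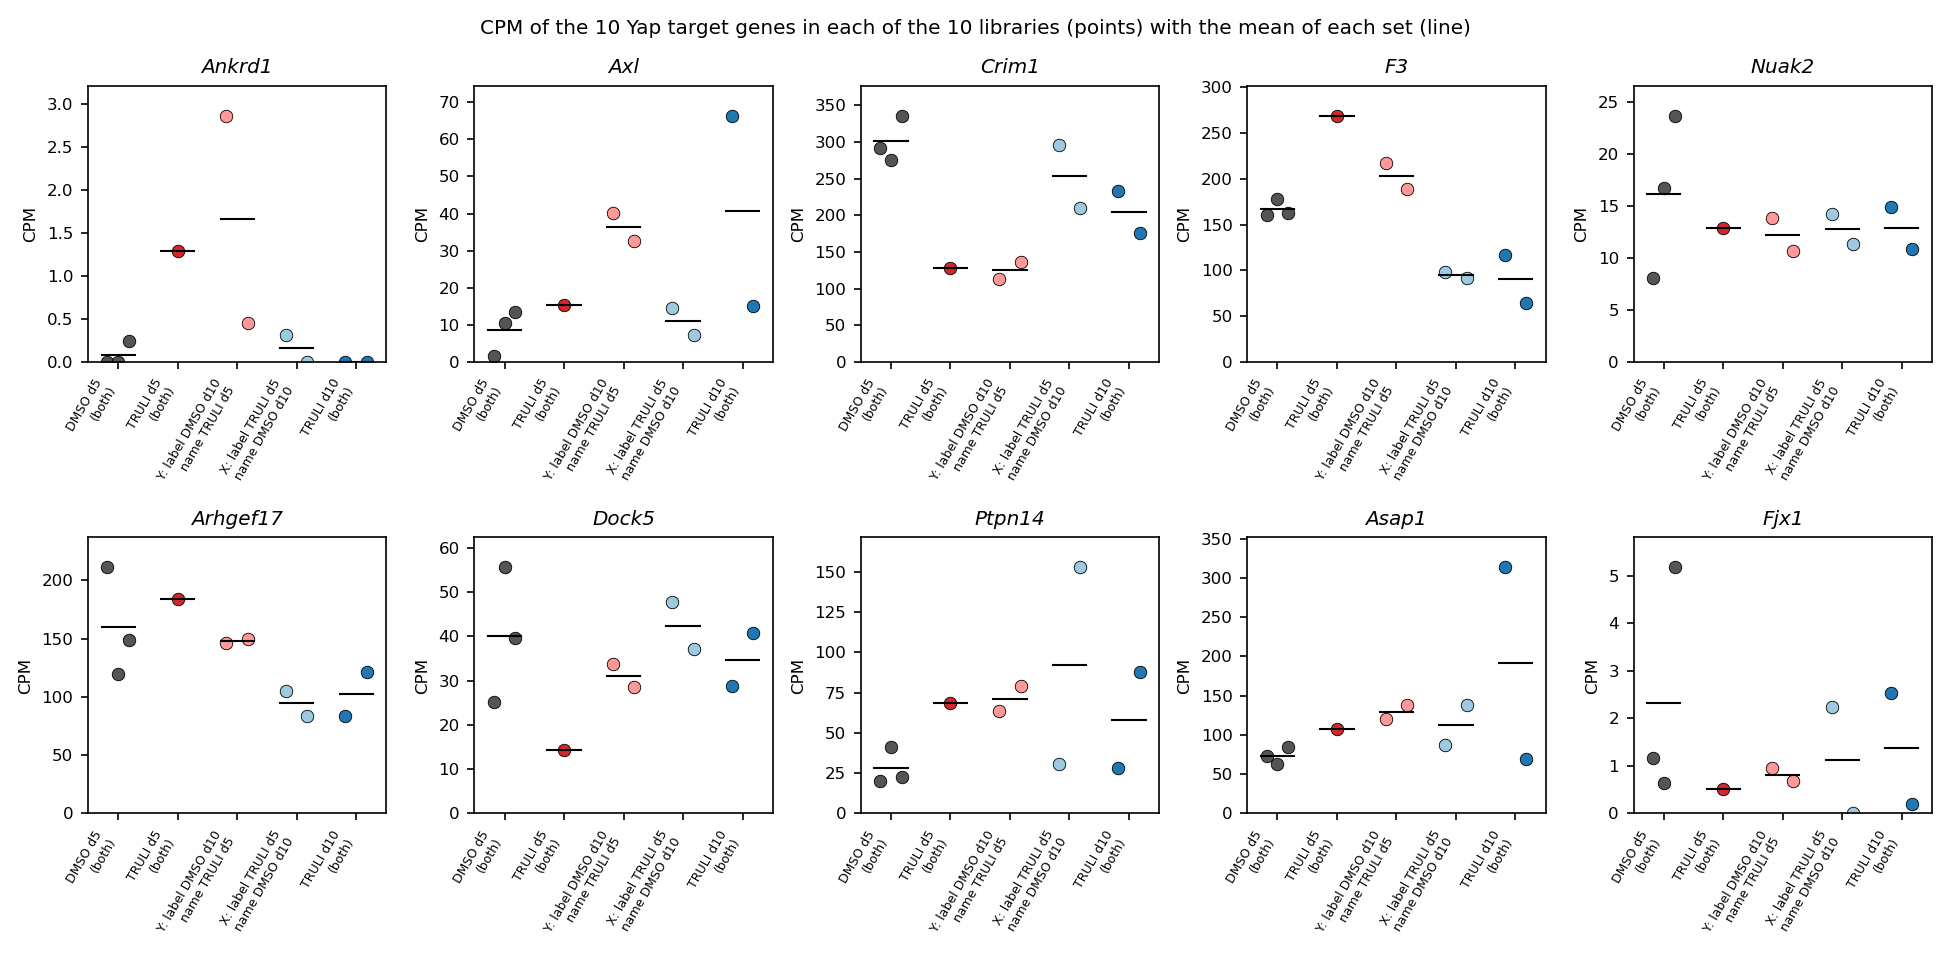
CPM of each of the 10 genes (linear axes from 0, one panel a gene) in each of the 10 libraries as points, with the mean of each set as a line; columns are DMSO d5, the TRULI d5 library of both groupings, Y, X and TRULI d10. Crim1 is lowest in the TRULI d5 library and Y (114 to 137 CPM), F3 is highest there (190 to 269 CPM), and Axl and Asap1 are highest in the first TRULI d10 library, at 66.4 and 314 CPM.

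Whether 5 days of Lats inhibition changed these genes was asked by comparing TRULI d5 with DMSO d5. The genes were tested with edgeR's quasi-likelihood test and called changed at a Benjamini-Hochberg adjusted p under 0.05, over all tested genes, with a log2 fold change beyond 1 in size. In the labelled groups 0 of the 8 tested genes was called (0.00903% of all 11071 tested genes were), and DESeq2 called 0 (2.3% of all genes). By edgeR 1 of the 8 had an unadjusted p under 0.05, as did 1515 of all 11071 genes. Ankrd1 and Fjx1 were removed by the filter on low counts. By the deposited names 2 of 8 were called, Crim1 lower and Ptpn14 higher, against 3.07% of all genes. With the name's replicate number as a block 3 were called (6.05% of all genes), and with DESeq2 3 (5.06%); the additional gene was Axl in both. Libraries given the same number by the deposited names deviated together at 5 days. The comparisons below share libraries with this one, so their values are given side by side and not as independent results.

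Crim1 was lower in TRULI d5 by the deposited names. It was at 292, 276 and 336 CPM in the controls, at 128 CPM in the TRULI d5 library of both groupings, at 114 and 137 CPM in Y1 and Y2 and at 296 and 211 CPM in X1 and X2. The TRULI d5 library of both groupings and Y lay below every control, and X1 lay among the controls. X2 was below every control as well, as were W1 at 233 CPM and W2 at 176 CPM. Grouped by deposited name, the mean fell from 301 ± 31.2 (SD, n = 3) to 126 ± 11.8 CPM (SD, n = 3), a log2 fold change of -1.24 (SE 0.20, adjusted p = 0.0101). With the block it was -1.24 (SE 0.16, adjusted p = 0.000683). In the labelled groups it was -0.54 (SE 0.37, adjusted p = 0.506). With the 6 libraries of undisputed condition, in which TRULI d5 is 1 library whose spread is taken from the other groups, Crim1 had a log2 fold change of -1.23 (SE 0.36, adjusted p = 0.445), and 0 of the 9 tested genes was called (0.0376% of all genes) and 2, Crim1 and Dock5, had an unadjusted p under 0.05. In that fit Ccn2 was called, at a log2 fold change of 5.89 (SE 0.59, adjusted p = 0.0207).

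Ptpn14 was at 20.1, 41.1 and 22.7 CPM in the controls, at 68.4 CPM in the TRULI d5 library of both groupings and at 63.7 and 78.8 CPM in Y1 and Y2. X1 was at 31.0 CPM, within the controls, and X2 at 153 CPM, the highest of all libraries. Grouped by deposited name, the log2 fold change was 1.34 (SE 0.29, adjusted p = 0.0319), and in the labelled groups it was 1.57 (SE 0.58, adjusted p = 0.339). The fold was thus larger by the labels, and its error was too.

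Axl was at 1.545, 10.6 and 13.3 CPM in the controls, 15.4 CPM in the TRULI d5 library of both groupings, 40.1 and 32.7 CPM in Y1 and Y2 and 14.5 and 7.33 CPM in X1 and X2. Its lowest and highest control differed 8.63-fold. The log2 fold change was 1.78 (SE 0.57, adjusted p = 0.140) by the deposited names, 1.94 (SE 0.35, adjusted p = 0.00547) with the block and 0.53 (SE 0.71, adjusted p = 0.736) by the labels. The summed level of 8 stromal markers was 20.1 to 38.5 CPM in the controls, 46.5 CPM in the TRULI d5 library of both groupings, 114 and 43.9 CPM in Y1 and Y2 and 50.7 and 39.6 CPM in X1 and X2, and its part in the Axl difference was not tested.

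The other genes were not called in either grouping. F3 was at 161, 178 and 163 CPM in the controls, at 269 CPM in the TRULI d5 library of both groupings and at 217 and 190 CPM in Y1 and Y2, all above the controls. X1 and X2 were at 98.8 and 91.6 CPM, below them, so the labelled TRULI d5 group lay on both sides. The F3 log2 fold change was 0.45 (SE 0.21, adjusted p = 0.330) by the deposited names and -0.13 (SE 0.46, adjusted p = 0.913) by the labels. Asap1 was at 73.8, 62.7 and 85.0 CPM in the controls and at 87.3 to 139 CPM in X, Y and the TRULI d5 library of both groupings, above every control in both groupings. Its log2 fold change was 0.74 (SE 0.21, adjusted p = 0.0978) by the deposited names, 0.75 (SE 0.18, adjusted p = 0.0206) with the block, where it stayed under the fold needed, and 0.57 (SE 0.32, adjusted p = 0.439) by the labels.

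Nuak2, Arhgef17 and Dock5 overlapped with the controls in both groupings. In the name grouping Nuak2 had a log2 fold change of -0.36 (SE 0.40), Arhgef17 of 0.02 (SE 0.25) and Dock5 of -0.63 (SE 0.37), with adjusted p of 0.717, 0.982 and 0.451. By the labels the log2 fold changes of Nuak2, Arhgef17 and Dock5 were -0.35, -0.37 and -0.31. The Dock5 level in the TRULI d5 library of both groupings, 14.4 CPM, was the lowest of all libraries.

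Ankrd1 held 0, 0 and 1 counts in the controls, 5 in the TRULI d5 library of both groupings, 12 and 2 in Y1 and Y2, 2 and 0 in X1 and X2 and 0 in both W1 and W2. Its summed counts in the name grouping were 19 against 1, a ratio of 14.8 after scaling (exact 95% interval 2.36 to 617, counting error only), and by the labels 7 against 1, a ratio of 5.29 (0.68 to 239). Fjx1 held 3, 2 and 21 counts in the controls, 2, 4 and 3 in the TRULI d5 library of both groupings, Y1 and Y2, and 14 and 0 in X1 and X2. Its ratio was 0.27 (0.111 to 0.595) by the deposited names and 0.465 (0.233 to 0.901) by the labels, and 21 of the 26 control counts came from the third control library.

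By position against the controls, 1 of the 8 tested genes, Asap1, did not overlap in the labelled groups, where 18.1% of all tested genes did not. By the deposited names Axl, F3, Ptpn14 and Asap1 lay above every control and Crim1 below, so that 5 of 8 did not overlap, against 21.3% of all tested genes (10.5% higher and 10.8% lower). The median log2 fold change of the 8 tested genes was -0.22 by the labels, where that of all tested genes was 0.05, and 0.23 by the deposited names, where that of all tested genes was 0.03. The signs were thus mixed: 3 positive and 5 negative by the labels, 5 positive and 3 negative by the deposited names.

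**Figure D2:**
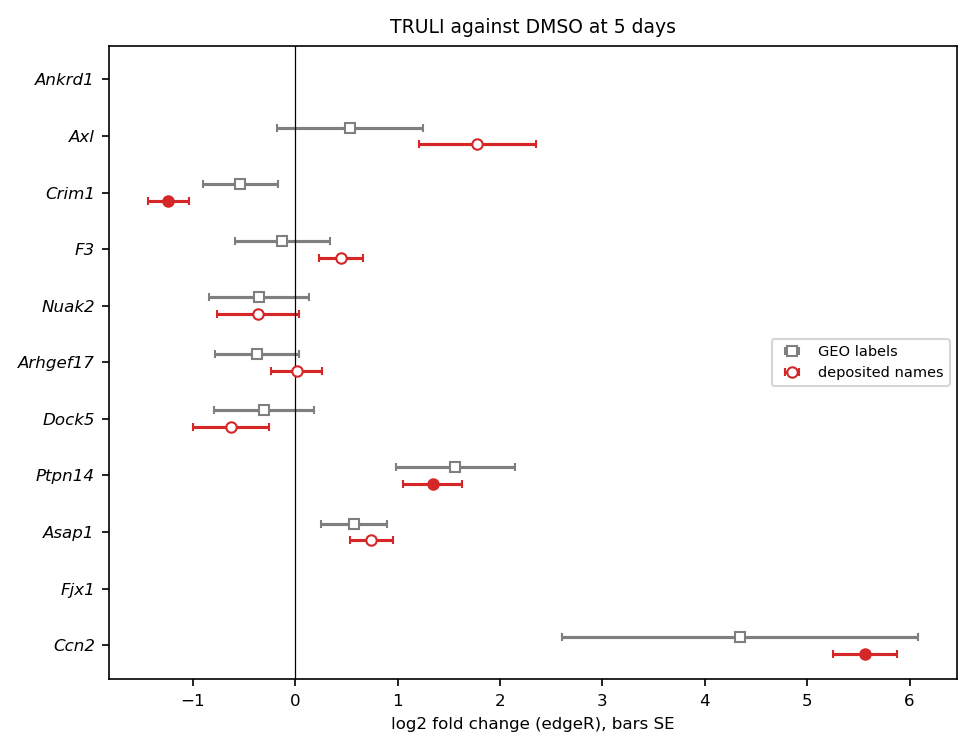
Log2 fold change of TRULI against DMSO at 5 days with its standard error (horizontal bars) for the tested genes and Ccn2, in the labelled groups (grey squares) and by the deposited names (red circles), with filled symbols for called genes. Crim1 at -1.24 and Ptpn14 at 1.34 are filled by the deposited names, Ccn2 lies at 5.57 there, and Ankrd1 and Fjx1 were not tested.

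The remaining 12 genes of the signature (10 tested) are given for comparison. Grouped by deposited name, 4 of the 10 were called higher and 0 lower: Ccn2, Amotl2, Lats2 and Igfbp3. Their log2 fold changes were 5.57 (SE 0.31) for Ccn2, 1.83 (SE 0.28) for Amotl2, which binds Yap at junctions, 1.48 (SE 0.33) for Lats2, the kinase itself, and 1.08 (SE 0.22) for Igfbp3, an insulin-like growth factor binding protein. In the labelled groups 0 of the 10 was called by edgeR, and 4 had an unadjusted p under 0.05, as did 1515 of all 11071 tested genes. The summed level of the 10 genes described here was 762 to 838 CPM in the controls, 802 CPM in the TRULI d5 library of both groupings, 754 to 767 CPM in Y and 697 to 733 CPM in X. The other 12 summed to 1535 to 1931, 3186, 3774 to 3827 and 1155 to 1202 CPM in the same sets, below every control in X. Of 7 genes (Yap1, Wwtr1, Tead1 to Tead4 and Vgll4), 0 was called in either grouping, with 2 at an unadjusted p under 0.05 in each. By the deposited names 1887 of all 11529 tested genes had such a p. The sums give most weight to the genes with most counts. By mean CPM over the 10 libraries these were Crim1, F3 and Arhgef17 in the first and Igfbp3 and Tgfb2 in the second. Ccn2 was at 8.68 to 15.1 CPM in the controls and at 696 CPM in the TRULI d5 library of both groupings, where Tgfb2 was at 698 CPM. In Y1 and Y2 Ccn2 was at 469 and 488 CPM. The 10 genes were picked by their absence from a display of targets that differed between treated and control cells in this study. That choice in part fixed the contrast with the other 12, which is therefore not an independent result.

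**Figure D3:**
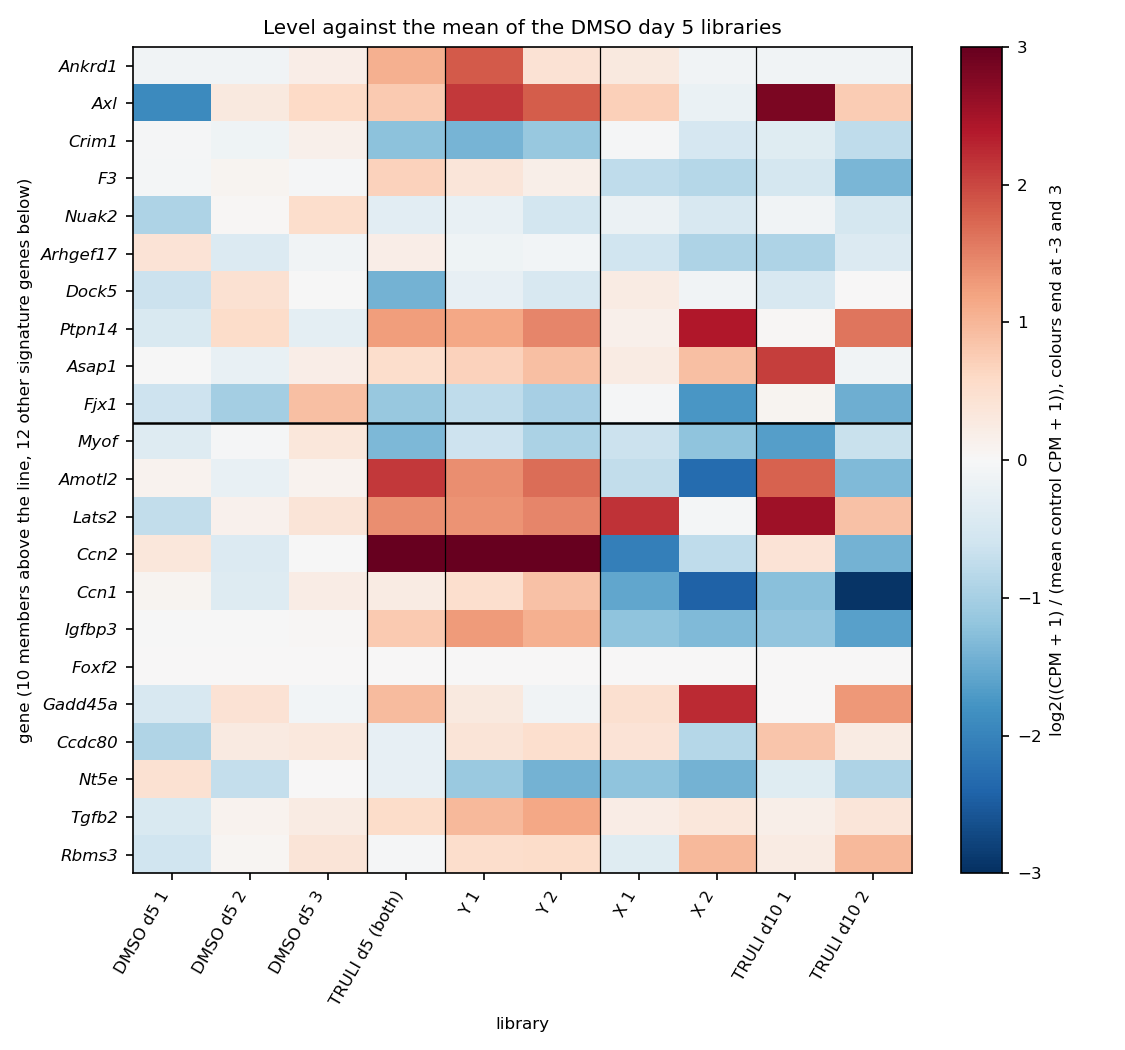
Level of the 10 genes (above the line) and the 12 other signature genes (below) in each library, as log2 of CPM + 1 over the mean control CPM + 1, with colours that end at -3 and 3. Ccn2 is beyond the colour range in the TRULI d5 library of both groupings, Y1 and Y2, whereas the rows above the line differ in sign in those libraries.

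**Figure D4:**
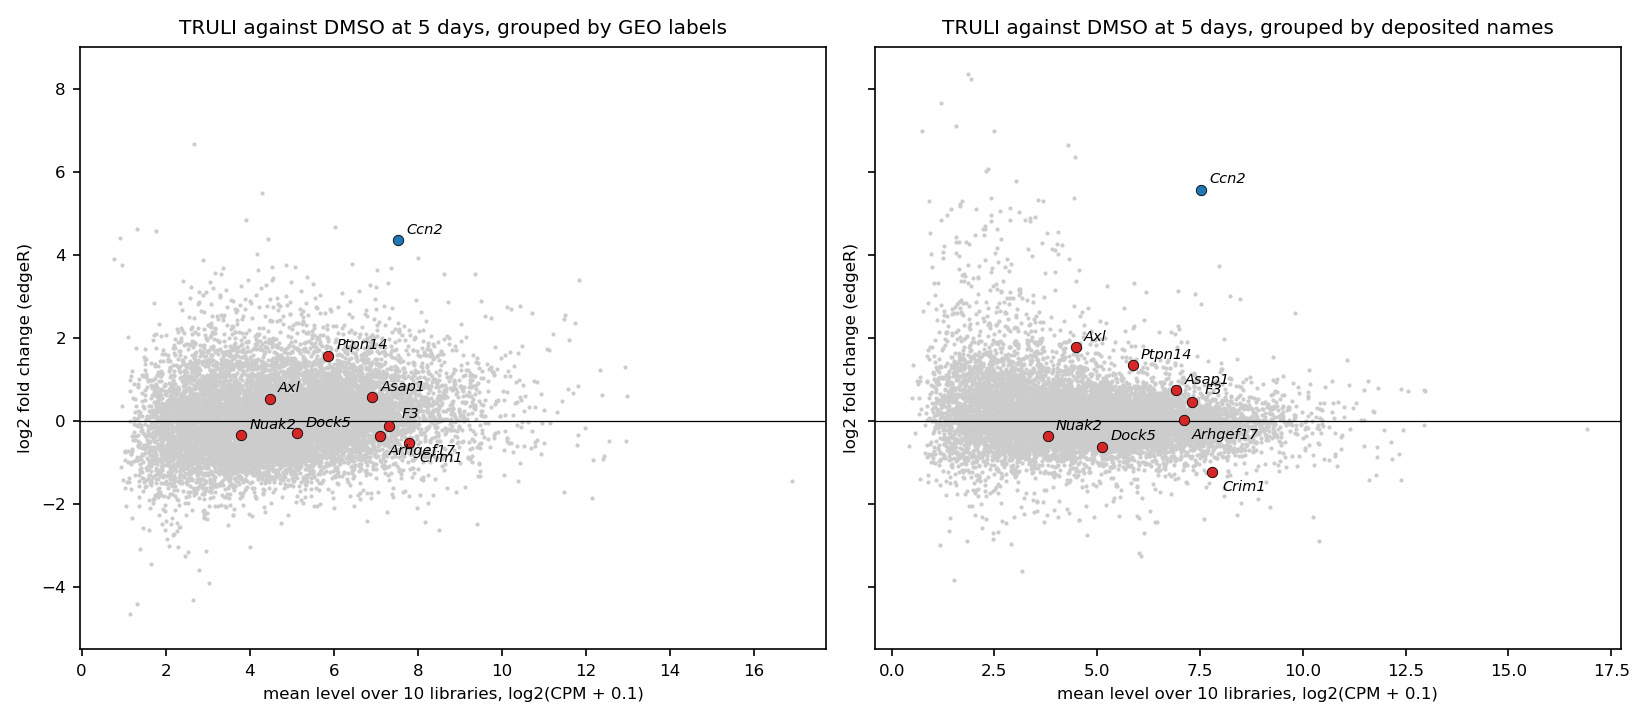
Log2 fold change of TRULI against DMSO at 5 days (vertical axis) against mean level as log2(CPM + 0.1) (horizontal axis) for all tested genes (grey points), the 8 tested genes described here (red) and Ccn2 (blue), by labels on the left and by deposited names on the right. By the deposited names Crim1 at -1.24 is the lowest and Axl at 1.78 the highest of the 8.

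Whether the genes still differed 5 days after the compound was removed was asked by comparing TRULI d10 with DMSO d10. By the labels these groups also differed in mitochondrial ribosomal RNA, 1.47% and 2.52% of counts in W1 and W2 against 23.8% and 13.1% in Y1 and Y2. Lfng was at 105 and 67.8 CPM against 526 and 294 CPM, and the part of either was not tested. In the labelled groups 0 of the 8 tested genes was called by edgeR (2.07% of all 12242 tested genes were). Of the 8, 1 had an unadjusted p under 0.05, F3, as did 3001 of all 12242 genes. F3 was at 117 and 64.4 CPM in W1 and W2 and at 217 and 190 CPM in Y1 and Y2, with a log2 fold change of -1.23 (SE 0.40, adjusted p = 0.122). DESeq2 called F3 lower (adjusted p = 0.0473, 12% of all genes called). With W1 or W2 left out the TRULI d10 arm is 1 library, which is assumed to vary like the libraries of the other group. Calls from these fits are therefore not given. Without W1, F3 had a log2 fold change of -1.74. Without W2, Ptpn14 had a log2 fold change of -1.41 and Asap1 of 1.19. In this comparison 57.7% of all tested genes did not overlap, as did Crim1 (higher, 176 and 233 against 114 and 137 CPM), F3 and Arhgef17 (both lower). With the deposited names, in which DMSO d10 is X1 and X2, 0 of 9 tested genes was called by edgeR or DESeq2 (edgeR called 0% of all 11568). Of the 9, 1 had an unadjusted p under 0.05 by edgeR, as did 532 of all 11568 genes. Axl was the only one of the 9 that did not overlap, where 28.8% of all genes did not. Axl was then at 66.4 and 15.2 CPM in W1 and W2 against 14.5 and 7.33 CPM, with a log2 fold change of 1.89 (SE 0.81, adjusted p = 0.9998). F3 had a log2 fold change of -0.08 (SE 0.48) by these names. The median log2 fold change was 0.05 by the labels (all tested genes 0.02) and 0.00187 by the deposited names (all tested genes 0.00657). Of the 10 other signature genes tested, 0 was called higher and 2 lower by the labels, Ccn2 at -5.65 (SE 0.68) and Igfbp3 at -2.62 (SE 0.36), and 0 by the names, where 0 had an unadjusted p under 0.05.

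The level with compound withdrawn was also compared with the level with it present, in groups that differ in time in culture as well. By the deposited names the groups also differed in mitochondrial ribosomal RNA, 1.47% and 2.52% of counts in W1 and W2 against 13.1% to 23.8%. Lfng differed too, at 105 and 67.8 CPM against 294 to 526 CPM, and the part of either was not tested. By the labels 0 of the 9 tested genes was called by edgeR (0% of all 12288) or DESeq2 (0.0326%). By edgeR 1 had an unadjusted p under 0.05, Axl, as did 399 of all 12288 genes. Of the 9, 0 did not overlap, against 16.1% of all genes. By the deposited names F3 was called lower, 1 of 8, against 13.9% of all 12450 genes called in either direction and 5.85% called lower. Its log2 fold change was -1.36 (SE 0.35, adjusted p = 0.0393). Leaving out any of the 3 libraries named TRULI d5 ended the F3 call. With each library left out, W1 and W2 included, F3 lay between -1.83 and -1.05 on the log2 scale. Without W2, where TRULI d10 is 1 library, Ptpn14 had a log2 fold change of -1.40 and Asap1 of 1.27. By these names Crim1 was higher and F3 and Arhgef17 lower without overlap among the 8 tested genes, where 50.9% of all genes did not overlap. Crim1 had a log2 fold change of 0.65 (SE 0.28, adjusted p = 0.138) and Arhgef17 of -0.69 (SE 0.30, adjusted p = 0.152). Using the 6 libraries of undisputed condition, where TRULI d5 is 1 library, F3 had a log2 fold change of -1.67 (SE 0.40) and was not called. The median log2 fold change of the tested genes was -0.03 by the labels (all tested genes -0.02) and 0.195 by the names (all tested genes -0.01). Of the 10 other signature genes tested, 3 were called lower by the names, Ccn2 at -5.84 (SE 0.65), Ccn1, a matricellular relative of Ccn2, at -2.50 (SE 0.51) and Igfbp3 at -2.49 (SE 0.33). Ankrd1 went from 19 counts in the 3 libraries named TRULI d5 to 0 in W1 and W2.

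TRULI d10 against DMSO d5 rests only on libraries of undisputed condition, but earlier TRULI and 5 more days in culture cannot be told apart there. Of the 8 tested genes 0 was called by edgeR, against 19.5% of all 11760 genes. An unadjusted p under 0.05 was found for 4 of the 8 and for 4315 of all 11760 genes. DESeq2 called 1, Axl higher (adjusted p = 0.0346, 24.4% of all genes called). Axl was higher and Crim1 and F3 lower without overlap, where 52.9% of all genes did not overlap. Axl had a log2 fold change of 2.16 (SE 0.79, adjusted p = 0.0840), F3 of -0.97 (SE 0.32, adjusted p = 0.0621) and Crim1 of -0.64 (SE 0.26, adjusted p = 0.117). Arhgef17, Nuak2 and Dock5 had log2 fold changes of -0.73 (SE 0.34), -0.41 (SE 0.53) and -0.29 (SE 0.41). The median of the 8 was -0.35, where that of all tested genes was 0.02. Of the 10 other signature genes tested, Lats2 was called higher at 1.93 (SE 0.55) and Ccn1 and Igfbp3 lower at -1.97 (SE 0.48) and -1.47 (SE 0.27), while Ccn2 was at -0.34 (SE 0.66, adjusted p = 0.742). The share of mitochondrial ribosomal RNA and the Lfng level given above also separate the 2 groups, and their part in these differences was not tested.

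The 2 TRULI d10 libraries differed in several of these genes. Axl was at 66.4 and 15.2 CPM in W1 and W2 (4.36-fold), Asap1 at 314 and 68.8 CPM (4.56-fold) and Ptpn14 at 28.5 and 87.8 CPM (3.08-fold). Asap1 in W1 was the highest of all libraries, and W2 lay within the controls. The log2 fold change of Asap1 against DMSO d5 was 1.29 (SE 0.52, adjusted p = 0.109). It was -0.12 without W1 and 1.98 without W2, fits in which the spread comes from the controls alone. Calls from such fits are not given. Without W2, Axl had a log2 fold change of 2.81. For Ptpn14 the log2 fold change was 0.98 (SE 0.52, adjusted p = 0.206), 1.63 without W1 and -0.09 without W2. Without W1, F3 had a log2 fold change of -1.39. The summed stromal markers were at 132 CPM in W1 and 36.9 CPM in W2, the hair-cell markers at 899 and 141 CPM and the Schwann-cell markers at 152 and 80.7 CPM, and their part in the difference was not tested. Fewer cells of a type and less RNA per cell cannot be told apart in these bulk libraries.

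**Figure D5:**
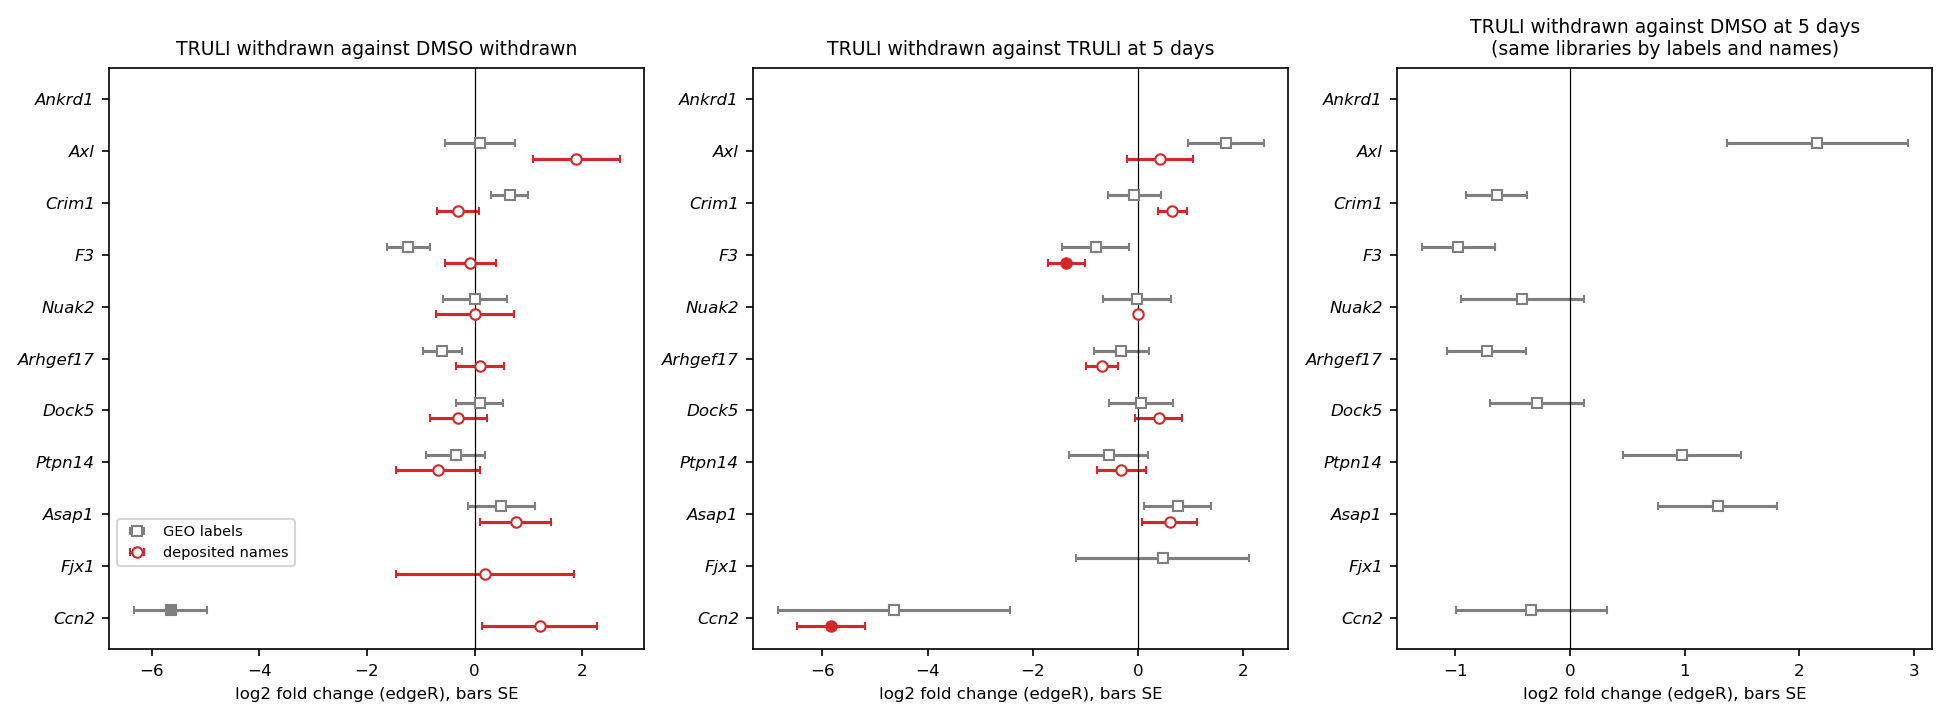
Log2 fold change with its standard error for TRULI d10 against DMSO d10, against TRULI d5 and against DMSO d5, by labels (grey squares) and deposited names (red circles), filled where called. F3 is filled at -1.36 against TRULI d5 by the deposited names, the last panel uses the same libraries in both groupings, and no standard error is drawn for Nuak2 against TRULI d5 by the deposited names, where none was computed because the F statistic it is derived from was near 0.

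The difference between the TRULI effect at 5 days and that after withdrawal was tested as an interaction over all 10 libraries. By edgeR 0 of the 9 tested genes was called in either grouping (0% of all 12841 genes), and DESeq2 called 0 as well. By edgeR 1 of the 9 by the labels and 2 by the deposited names had an unadjusted p under 0.05. Of all 12841 genes, 874 by the labels and 1217 by the deposited names had such a p. Ptpn14 had an interaction of 1.99 (SE 0.85, adjusted p = 0.500) and Crim1 of -0.93 (SE 0.37, adjusted p = 0.479) by the deposited names. By the labels Ptpn14 had 1.89 (SE 0.91, adjusted p = 0.742) and Crim1 -1.20 (SE 0.52, adjusted p = 0.719).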

How the data were processed

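The 10 libraries were deposited as 1 table each of expected counts per gene, in the form that RSEM writes, with effective lengths. Per the study methods, STAR was used to align reads to GRCm38; the deposited expected counts sum to other totals in each table and show no scaling; the counting program is not given in the sources used here. The labels name poly(A) selection and another kit than the methods. Groups came from the labels, with the deposited names as an alternative. The 10 genes and the gene lists were chosen with earlier results of these data known; all 10 are named in each comparison by rule.

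Expected counts were rounded and compared with edgeR 4.0.16 in R 4.3.3 (filterByExpr, TMM, quasi-likelihood test, Benjamini-Hochberg over all tested genes), with DESeq2 1.42.0 as an alternative. Other alternatives were no filter, a replicate block, all 10 libraries fitted together, DESeq2 size factors, protein-coding genes only, no minimum fold, the 6 undisputed libraries and leaving out each library. CPM used TMM factors over the 10 libraries, and FPKM the effective lengths. Symbols and positions came from GENCODE M21. The fit was tested on simulated data. The deposited-name numbers paired the libraries at 5 days: same-numbered libraries deviated together from their group means (correlations across genes 0.381, 0.192 and 0.315). The labels do not say that replicates are separate animals, so p-values may measure technical spread, although the methods state biological replicates. Every pair of libraries differed by more than sampling noise (lowest chi-square per degree of freedom 15.3). Intervals and the 3-count limit cover counting error only. Overlapping genes can share reads in these counts.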

Additional observations from a re-analysis of the deposited data

How the results depend on the processing

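Counts of the 10 genes called were 0 in every comparison by the labels. TRULI against DMSO at 5 days gave 2 by the deposited names (also with no minimum fold, protein-coding genes only or DESeq2 size factors, chosen after seeing the data), 3 with DESeq2 or no filter on low counts, 1 with all 10 libraries in one fit, and 1 by the labels with no filter. Over all genes, no filter gave 651 higher and 251 lower of 20189 by the names, and 546 and 100 of 20196 by the labels. The fit of all 10 libraries gave 67 and 42 of 12841 by the names. TRULI d10 against DMSO d10 gave 1 with DESeq2 or no filter by the labels. Against TRULI d5 it gave 1 under the deposited names and under each of their alternatives that kept all the libraries of the comparison. Against DMSO d5 it gave 1 with DESeq2 and 3 with no filter, and the interaction gave 1 by the deposited names with no filter. Over all genes, no filter gave 1050 higher and 701 lower of 19310 against DMSO d10, and 1679 and 1253 of 19958 against TRULI d5 by the names. It gave 2066 and 1143 of 19078 against DMSO d5, and 119 and 191 of 21582 for the interaction by the names. With the replicate block, the counts were 3 at 5 days by the deposited names, 1 for TRULI d10 against DMSO d10 by the labels and 1 for TRULI d10 against TRULI d5 by the names (F3 in both, -1.29 and -1.53 on the log2 scale), and the block changed no other count. Over all genes the block gave 473 higher and 225 lower of 11529, 725 and 544 of 12242, and 707 and 396 of 12450 in these fits. Outside the name grouping at 5 days it is not known whether same-numbered libraries belonged together. At 5 days by the labels their deviations correlated at -0.159, 0.0667 and -0.196. For TRULI d10 against DMSO d10 the value was 0.203 by the labels and 0.181 by the names, with too few libraries to tell. Leaving out each library gave 0 to 0 (labels) and 0 to 1 (names) at 5 days, and 0 to 0 in both for the interaction. In the comparisons of TRULI d10 with DMSO d10, TRULI d5 and DMSO d5, none of the 10 genes was called when a library other than W1 or W2 was left out. Without W1 or W2, TRULI d10 is 1 library, and calls from those fits are not given. By the names at 5 days, Crim1 was called in 4 of 6 and Ptpn14 in 1 of 6 leave-one-out fits. The F3 call against TRULI d5 was lost in every leave-one-out fit that kept both TRULI d10 libraries. Of 1016 log2 fold changes under alternatives, 792 kept direction and side of the threshold, 50 passed it newly, and 174 changed sign with neither value past it; the label fits called 0 genes, so no call could be lost or reversed among them. Of 80 mean CPM under other totals, 13 moved by over 1 SD. Over all genes, calls went from 1 to 255 with DESeq2 at 5 days by the labels, from 354 to 698 with the block and 583 with DESeq2 by the names, from 253 to 1467 with DESeq2 against DMSO d10, and from 2297 to 12 with all 10 libraries in one fit against DMSO d5. The causes were not tested. Ankrd1 and Fjx1 are limited by depth, at 3 counts or fewer in most libraries.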

Other observations

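The summed level of 8 proliferation markers was 46.2 to 91.6 CPM in the controls, 150 CPM in the TRULI d5 library of both groupings, 345 to 491 CPM in Y1 and Y2, 50.6 to 70.0 CPM in X1 and X2 and 44.4 to 71.1 CPM in W1 and W2. Mki67, a marker of cycling cells, was at 26.2 CPM in the TRULI d5 library of both groupings, at 122 and 57.0 CPM in Y1 and Y2, at 0 to 1.61 CPM in the controls, and at 0 in W1 and W2. Summed hair-cell markers were at 764 CPM in the TRULI d5 library of both groupings, at 514 and 180 CPM in Y1 and Y2 and at 899 and 141 CPM in W1 and W2, against 153 to 248 CPM in the controls and 28.2 to 42.5 CPM in X1 and X2. The summed level of 7 genes (Yap1, Wwtr1, Tead1 to Tead4 and Vgll4) was 336 to 382 CPM in the controls and 694 to 807 CPM in X1, X2, W1 and W2. It was 408 CPM in the TRULI d5 library of both groupings and 340 to 415 CPM in Y1 and Y2. Against DMSO d5, Wwtr1, which encodes Taz, was called higher in TRULI d10 at a log2 fold change of 1.67 (SE 0.28, adjusted p = 0.00898 by edgeR) and Tead1 at 1.42 (SE 0.38, adjusted p = 0.0335), with 19.5% of all tested genes called.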
